A study of Mus musculus with 16 samples.

Results

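The ST3Gal family is a group of 6 sialyltransferases, encoded in the mouse by *St3gal1* to *St3gal6*, and its mRNAs were followed here through β-adrenergic stimulation of cultured brown adipocytes. The members were all rows of the count table that carry 1 of these 6 symbols, 6 of the 54347 genes listed, and all 6 had enough counts to be tested. *St3gal6* is in the set because it was among the largest decreases with isoproterenol in these same libraries, so its isoproterenol values are a description and carry no test. The other 5 members were taken by family name. The cells were wt1-SAM brown adipocytes, a single immortalized mouse line that in every group carried the CRISPR activation system SAM, in which guide RNAs bring activator proteins to a chosen promoter. They were differentiated with rosiglitazone, T3, dexamethasone, insulin, indomethacin and IBMX, transfected on day 4 with 250 ng of plasmid and harvested on day 7. The plasmid was either the empty guide vector (empty) or the pSgRNA-MS2-2+7 guide vectors against the long noncoding RNA *Gm15551* (sgRNA), and cells of each kind were left as control (ctrl) or kept for 24 h in 1 µM isoproterenol (iso), which activates β-adrenergic receptors. Each of these 4 groups had 4 polyA RNA libraries, numbered replicate 3, 4, 5 and 6, which gave 16 libraries. The labels do not say whether the numbers stand for separate cultures or thaws, so the p-values measure the spread between these samples.

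Sialyltransferases of the Golgi move sialic acid from CMP-sialic acid onto the ends of sugar chains on proteins and lipids. Members of the ST3Gal family attach it to a terminal galactose, and differ in the chain that they prefer. *St3gal1* and *St3gal2* act mainly on galactose linked to N-acetylgalactosamine, the core of mucin-type O-glycans, and *St3gal2* also on gangliosides. *St3gal3*, *St3gal4* and *St3gal6* act mainly on lactosamine ends of N-glycans and O-glycans, and *St3gal4* and *St3gal6* are known for their part in selectin ligands. *St3gal5* makes the ganglioside GM3 from lactosylceramide, the entry step of ganglioside synthesis.

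The members lie on 6 chromosomes of the GRCm38 build, all annotated as protein coding. *St3gal6* (ENSMUSG00000022747) lies on the minus strand at chr16:58468125-58524243. *St3gal1* (ENSMUSG00000013846, chr15:67102875-67176830), *St3gal3* (ENSMUSG00000028538, chr4:117932154-118134914) and *St3gal4* (ENSMUSG00000032038, chr9:35046576-35119268) are also on the minus strand. *St3gal2* (ENSMUSG00000031749, chr8:110919922-110972480) and *St3gal5* (ENSMUSG00000056091, chr6:72097592-72154571) are on the plus strand. No stretch of 31 bases was shared between the transcripts of any pair of members, so reads of that length cannot be divided between them. Sequence shared with other genes was found in 24.8% of the 31-base stretches of *St3gal6*, all of them in *Dcbld2*, which overlaps its end on the opposite strand by 1603 bp. For *St3gal4* the share was 12.1%, and *4930581F22Rik* overlaps it by 2541 bp. Since the use of read strand is not given in the sources used here, part of the counts of both genes could come from the overlapping partner.

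The promoter windows of the member chosen for its decrease and of *St3gal4*, the member with the highest level per kb of exon in control cells, are shown to set the bases at their start sites beside the values below. They run from 250 bases before to 50 bases after the start in RefSeq on GRCm38.p6, 5′ to 3′ on the gene's strand, and 4 of the 6 members (*St3gal3* to *St3gal6*) matched an entry. Capitals mark matches, on either strand, to any of 6 motifs searched by their letters: the cAMP response element TGACGTCA, its core TGACG (contained in it), the nuclear receptor site AAAGGTCA, the TATA box as TATAAA, the CCAAT box by its own letters and the GC box as GGGCGG. *St3gal6* has a pair of annotated starts, at chr16:58524204-58524503 and chr16:58523377-58523676 (minus strand), and the window of *St3gal4* is at chr9:35116815-35117114 (minus strand).
St3gal6 upstream start: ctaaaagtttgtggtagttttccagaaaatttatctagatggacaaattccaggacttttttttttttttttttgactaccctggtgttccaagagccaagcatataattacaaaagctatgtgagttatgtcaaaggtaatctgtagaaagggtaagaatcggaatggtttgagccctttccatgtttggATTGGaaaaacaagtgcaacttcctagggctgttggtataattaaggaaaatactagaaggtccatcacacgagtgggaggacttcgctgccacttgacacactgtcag
St3gal6 downstream start: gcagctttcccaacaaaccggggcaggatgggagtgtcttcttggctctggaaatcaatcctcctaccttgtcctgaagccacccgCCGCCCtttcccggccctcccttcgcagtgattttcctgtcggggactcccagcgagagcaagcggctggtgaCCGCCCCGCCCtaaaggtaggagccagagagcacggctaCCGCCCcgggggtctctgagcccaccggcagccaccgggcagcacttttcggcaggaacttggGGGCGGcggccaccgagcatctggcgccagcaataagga
St3gal4: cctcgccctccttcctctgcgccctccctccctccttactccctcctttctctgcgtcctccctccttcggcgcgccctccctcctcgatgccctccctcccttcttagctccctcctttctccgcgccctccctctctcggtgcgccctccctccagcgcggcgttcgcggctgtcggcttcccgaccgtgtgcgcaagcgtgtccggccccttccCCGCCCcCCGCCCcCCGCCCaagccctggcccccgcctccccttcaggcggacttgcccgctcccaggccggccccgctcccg

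The 2 *St3gal6* windows differed in base composition, with a GC content of 38.7% at the upstream start and 64.7% at the downstream start, against a median of 52.7% over all promoter windows. The upstream window held 1 CCAAT and the downstream window 5 matches to GGGCGG, of which a pair overlapped. The *St3gal4* window held 3 matches to GGGCGG and had a GC content of 74%. TGACGTCA, AAAGGTCA and TATAAA had no match in any of the 5 member windows, and TGACG had 1, in *St3gal5*. Over all 32851 windows of the same length, TGACGTCA was found in 1.79%, TGACG in 20.8%, AAAGGTCA in 1.51%, TATAAA in 13.6%, CCAAT in 37.4% and GGGCGG in 35.7%. These are matches of letters, not sites shown to be bound.

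The libraries held 9053521 to 16546187 estimated counts, of which 11.7% to 51.8% fell on a single gene annotated as ribosomal RNA. That share was 19.7% to 47.3% in empty ctrl and 22.1% to 51.8% in empty iso against 17.8% to 20.2% in sgRNA ctrl and 11.7% to 28.7% in sgRNA iso, and in each of 8 pairs of the same number and treatment the empty library had the higher share. *Gm15551*, the gene the guides were aimed at, reached 0.952 ± 0.405 CPM (counts scaled by library total and TMM factor; mean ± SD, n = 4) in empty ctrl, 0.147 ± 0.199 in empty iso, 2.97 ± 1.08 in sgRNA ctrl and 1.56 ± 0.42 in sgRNA iso, with the library ranges of both sgRNA groups above those of the empty group of the same treatment. Averaged over treatments its sgRNA effect was called only with the replicate block (log2 fold change 2.41, edgeR adjusted p = 0.00055, against 2.37 and 0.0989 without it). The adipocyte markers differed widely in level, from *Fabp4* at 8215 to 19506 CPM over all libraries to *Lep* and *Dio2*, which had 1 count each in all 16 libraries together. The summed level of 13 adipocyte markers was 17103 to 27542 CPM in empty ctrl, 13078 to 23036 in empty iso, 20630 to 26147 in sgRNA ctrl and 14091 to 24644 in sgRNA iso. The summed level of 10 preadipocyte markers in the same order was 43.0 to 117, 53.9 to 136, 34.1 to 79.6 and 44.5 to 112 CPM, with *Pdgfra* at 1.4 to 4.31 CPM. *Ucp1*, the uncoupling protein of brown fat, rose with isoproterenol (log2 fold change 4.03, edgeR quasi-likelihood test, Benjamini-Hochberg adjusted p = 7.36e-06), but its level stayed at or below 15.5 CPM. *Adipoq*, which encodes adiponectin, fell by 1.06 on the log2 scale (edgeR adjusted p = 0.00222), and these were the calls among 11 tested adipocyte markers. With the block *Cidea* (1.20, edgeR adjusted p = 0.000746) was also called higher and *Cebpa* (−0.72, adjusted p = 0.000236) and *Plin1* (−0.57, adjusted p = 0.000217) lower, and 6 were not called. Of these *Fabp4* (−0.37), *Cd36* (−0.26), *Slc2a4* (−0.38) and *Elovl3* (0.27) passed the p threshold with the block (edgeR adjusted p = 0.00388, 0.00274, 0.00163 and 0.00329), each in 1 direction in 8 of 8 pairs and short of the size bound, and *Pparg* (−0.06) and *Lpl* (−0.03) did not. In such bulk samples, fewer cells that express a gene and less RNA per cell cannot be told apart.

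*St3gal6* was the member that differed most between stimulated and control cells. In empty ctrl its level was 51.9, 29.6, 46.5 and 26.2 CPM in replicates 3, 4, 5 and 6, scaled between libraries by TMM. In empty iso the same replicates held 10.8, 6.31, 8.78 and 8.50 CPM. In sgRNA cells the levels were 56.2, 32.3, 43.8 and 31.7 CPM in control and 12.7, 10.0, 14.3 and 12.8 CPM with isoproterenol. Every stimulated library lay below every control library, and the ranges were separated by a gap from 14.3 to 26.2 CPM. Within control cells, replicates 3 and 5 were the high ones and replicates 4 and 6 the low ones in both plasmid groups.

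Averaged over plasmids, the *St3gal6* level was 3.87-fold lower with isoproterenol (log2 fold change −1.95, SE 0.17). It was 4.54-fold lower in empty cells (log2 fold change −2.18, 95% interval −2.71 to −1.65) and 3.30-fold lower in sgRNA cells (−1.72, −2.23 to −1.21). These intervals describe the spread between libraries and do not allow for the choice of *St3gal6* by its decrease. Matched by replicate number, the ratio of control to stimulated CPM was 4.79, 4.69, 5.29 and 3.08 in empty cells and 4.42, 3.23, 3.07 and 2.48 in sgRNA cells. The smallest ratio of each plasmid group was that of replicate 6. Among called genes with a mean of at least 1 CPM, *St3gal6* had the second rank of decrease, behind *Sctr*, the receptor for secretin, at −2.07. *Smkr-ps* at −1.86 was the last of the 5 largest decreases and *Gm15551* at −1.69 the first outside them. The counts behind these values ranged from 69 to 181 in stimulated and from 252 to 862 in control libraries.

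**Figure D1:**
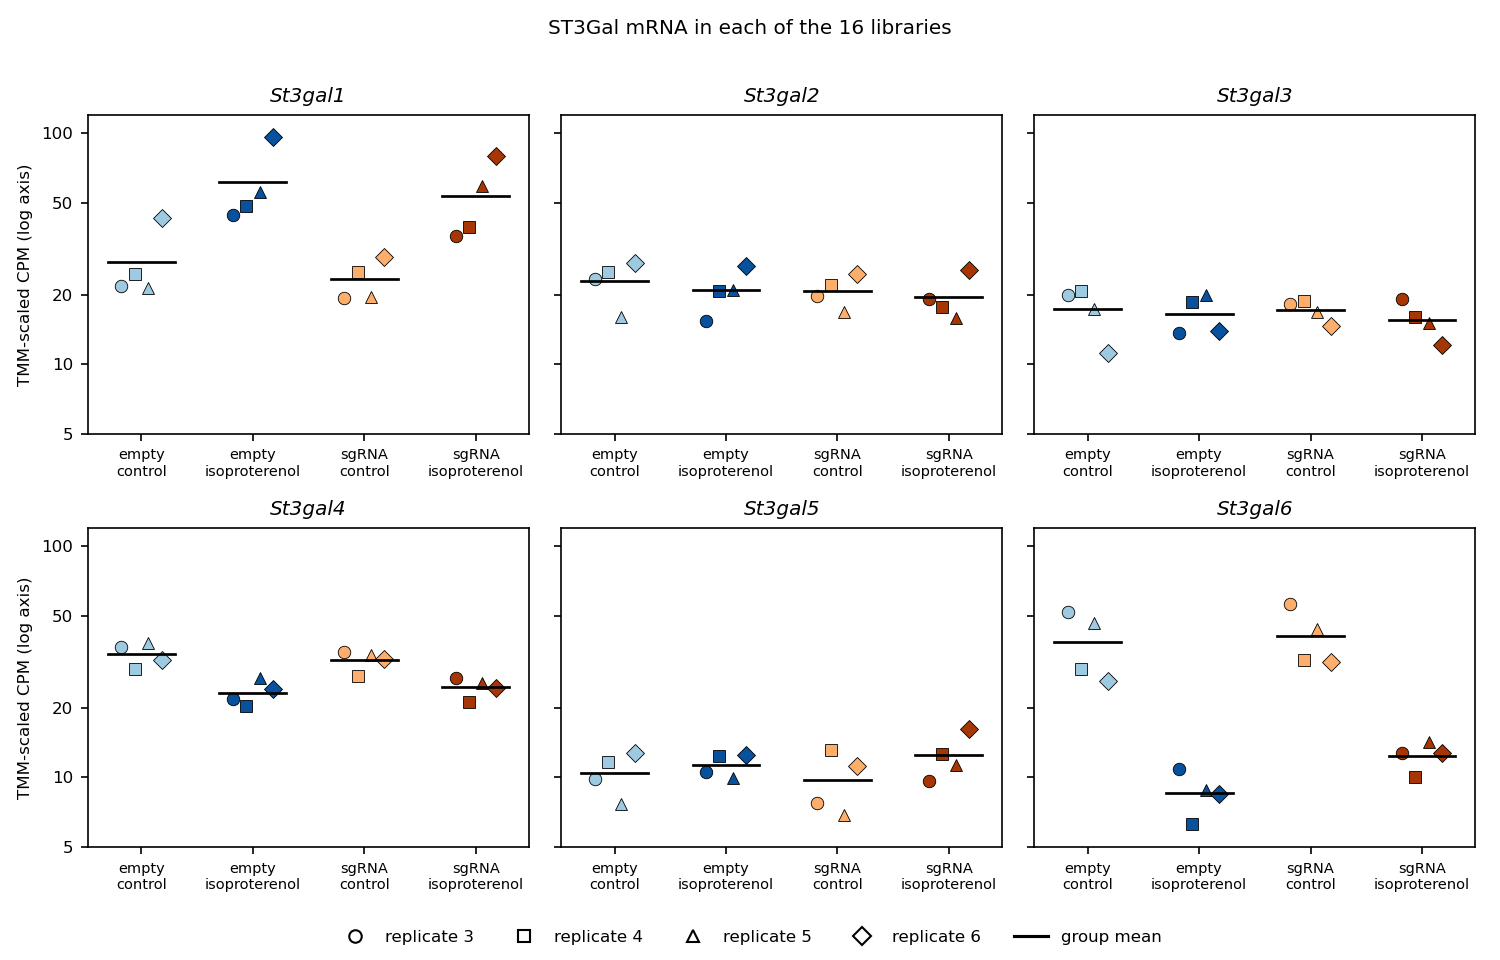
Level of each ST3Gal mRNA (TMM-scaled CPM, log axis) in the 4 groups, with 1 symbol per library shaped by replicate number and a bar at the group mean. *St3gal6* reaches at most 14.3 CPM in the 8 stimulated libraries and at least 26.2 CPM in the 8 control libraries, *St3gal1* is higher and *St3gal4* lower in each stimulated library than in its control of the same number, and the others overlap.

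*St3gal1*, the O-glycan sialyltransferase, went the other way. Its level was 21.7, 24.7, 21.3 and 43.1 CPM in empty ctrl (replicates 3, 4, 5 and 6) and 44.4, 48.3, 55.7 and 96.6 CPM in empty iso. In sgRNA cells it was 19.4, 25.1, 19.5 and 29.3 CPM in control and 36.0, 39.3, 59.3 and 79.4 CPM with isoproterenol. Replicate 6 was the highest in each of the 4 groups, and its empty ctrl library was the only control library to reach into the stimulated range. *St3gal1* rose 2.26-fold averaged over plasmids (log2 fold change 1.17, SE 0.21, edgeR adjusted p = 0.00422, higher in 8 of 8 replicate-matched pairs). Genes are called here at an adjusted p under 0.05 with an absolute log2 fold change over 0.5, and of the 13150 genes tested 2.65% were called, 1.33% higher and 1.32% lower. *St3gal1* was the single member called among the 5 that were not chosen by their response. Without replicate 5 its adjusted p was 0.0531, and its log2 fold change 1.08. By size it was rank 62 of 169 rises among called genes with a mean of at least 1 CPM.

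The *St3gal1* rise was of like size in both plasmid groups, 2.22-fold in empty cells (log2 fold change 1.15, 95% interval 0.51 to 1.79) and 2.29-fold in sgRNA cells (1.20, 0.56 to 1.84). Within 1 plasmid group the edgeR test did not call it, with an adjusted p of 0.102 in empty and 0.101 in sgRNA cells. With the replicate number as a block, it was called in both, with an edgeR adjusted p of 5.15e-05 and 3.85e-05. Of all genes, 0.829% were called in empty cells and 0.7% in sgRNA cells without the block, and 4.47% and 3.9% with it, of which 2.32% and 2.08% were higher. The ratio of stimulated to control CPM in pairs of the same number was 2.05, 1.95, 2.62 and 2.24 in empty cells and 1.86, 1.56, 3.03 and 2.71 in sgRNA cells.

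*St3gal4*, one of the lactosamine sialyltransferases, was modestly lower with isoproterenol. Its level was 36.6, 29.6, 38.2 and 32.3 CPM in empty ctrl and 21.8, 20.3, 26.8 and 24.1 CPM in empty iso. In sgRNA cells it was 35.0, 27.4, 33.8 and 32.4 CPM in control and 27.0, 21.1, 25.5 and 24.4 CPM with isoproterenol. The stimulated libraries, 20.3 to 27.0 CPM, lay just below the control libraries, 27.4 to 38.2 CPM, so that *St3gal4* and *St3gal6* were the members whose 8 stimulated and 8 control libraries did not overlap. Of all genes tested, 0.76% did not overlap in this direction. Averaged over plasmids, *St3gal4* was 1.39-fold lower (log2 fold change −0.47, SE 0.084, edgeR adjusted p = 0.00363, lower in 8 of 8 pairs), which passed the p threshold, as 4.49% of all genes did, but not the size bound. In empty cells it was called (log2 fold change −0.56, edgeR adjusted p = 0.0366, against 0.373% of all genes called lower), a call that was lost in 10 of the 20 repeats that left out 1 library or 1 replicate number and without the 3 libraries over 40% ribosomal RNA (−0.55, edgeR adjusted p = 0.256). In sgRNA cells the log2 fold change was −0.39 (edgeR adjusted p = 0.22). With the block it passed the p threshold there (−0.39, edgeR adjusted p = 0.00208, lower in 4 of 4 pairs) but not the size bound. Leaving out empty ctrl replicate 4, sgRNA ctrl replicate 4 or empty iso replicate 5 took the averaged change past the size bound, to −0.51 in each case. Without replicate 3 the averaged change was −0.44 and no longer passed the p threshold (edgeR adjusted p = 0.0723).

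The remaining members were not called. *St3gal2*, an O-glycan and ganglioside sialyltransferase, ranged from 15.97 to 27.3 CPM in control and from 15.3 to 26.7 CPM in stimulated libraries (log2 fold change −0.11, 95% interval −0.40 to 0.18, edgeR adjusted p = 0.756). *St3gal3*, which acts on lactosamine ends, ranged from 11.2 to 20.8 CPM and from 12.1 to 19.8 CPM (−0.11, −0.39 to 0.18, edgeR adjusted p = 0.75). *St3gal5*, the GM3 synthase, ranged from 6.89 to 13.2 CPM and from 9.68 to 16.2 CPM (0.23, −0.09 to 0.55, edgeR adjusted p = 0.47). For *St3gal2* and *St3gal3* these intervals, averaged over plasmids, leave room for changes of less than 0.5 on the log2 scale only. Within 1 plasmid group, those of *St3gal2* in empty cells (−0.55 to 0.28) and *St3gal3* in sgRNA cells (−0.54 to 0.26) reach further. The averaged interval of *St3gal5* reaches past 0.5 on its upper side. With the replicate block it was 0.05 to 0.42 around a log2 fold change of 0.23. That interval leaves out 0 and stays under 0.5, and the gene was not called (edgeR adjusted p = 0.0699).

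**Figure D2:**
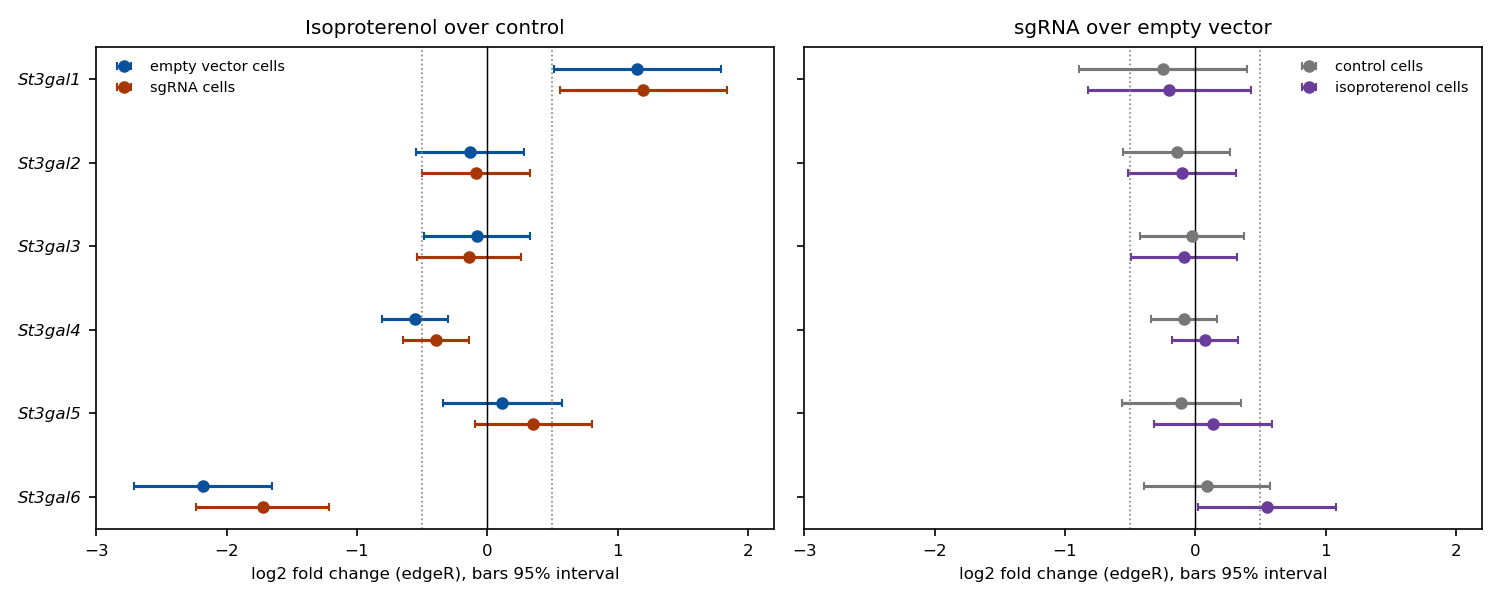
Log2 fold changes of the 6 members from edgeR, with 95% intervals, for isoproterenol over control within each plasmid group (left) and for sgRNA over empty vector within each treatment (right), with dotted lines at the size bound of 0.5. *St3gal1* lies to the right and *St3gal6* to the left for isoproterenol in both plasmid groups, and all sgRNA values lie between −0.25 and 0.55. The isoproterenol intervals of *St3gal6* do not allow for its choice by its decrease.

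Because the members differ in length, their levels were compared as CPM per kb of merged exons. In empty ctrl *St3gal4* was the highest at 11.7 ± 1.35 CPM per kb, above *St3gal3* at 6.28 ± 1.57 and *St3gal6* at 6.24 ± 2.04. *St3gal2* at 4.55 ± 0.973, *St3gal1* at 4.04 ± 1.51 and *St3gal5* at 4.00 ± 0.853 followed, and only the step from *St3gal4* to the next member exceeded their SDs. With isoproterenol *St3gal1* (8.94 ± 3.51 CPM per kb) and *St3gal4* (7.96 ± 0.979) were the highest and within their spread of each other. *St3gal3* (5.97 ± 1.14), *St3gal5* (4.32 ± 0.485) and *St3gal2* (4.15 ± 0.918) came next, and *St3gal6* was the lowest at 1.39 ± 0.299 CPM per kb.

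The order in sgRNA cells was alike. In control cells it ran from *St3gal4* (11.0 ± 1.14 CPM per kb) through *St3gal6* (6.64 ± 1.87), *St3gal3* (6.20 ± 0.684), *St3gal2* (4.13 ± 0.659) and *St3gal5* (3.73 ± 1.12) to *St3gal1* (3.40 ± 0.696). With isoproterenol *St3gal4* (8.38 ± 0.859) and *St3gal1* (7.81 ± 2.93) were again next to each other at the top and *St3gal6* (2.02 ± 0.286) at the bottom. *St3gal3* (5.63 ± 1.06), *St3gal5* (4.75 ± 1.05) and *St3gal2* (3.88 ± 0.852) lay between them.

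The summed level of the family was 36.8 ± 1.97 CPM per kb in empty ctrl, 32.7 ± 4.78 in empty iso, 35.1 ± 1.63 in sgRNA ctrl and 32.5 ± 3.80 in sgRNA iso. Its ranges overlapped between control (33.6 to 39.7) and stimulated libraries (27.7 to 38.8). The share of *St3gal6*, the member chosen for its decrease, was the only share whose control and stimulated libraries did not overlap. The share of *St3gal6* in that sum was 16.8% ± 4.88 in empty ctrl against 4.36% ± 1.37 in empty iso, and 18.8% ± 4.70 in sgRNA ctrl against 6.22% ± 0.766 in sgRNA iso. The share of *St3gal1* was 11.1% ± 4.39 against 26.7% ± 6.43 and 9.73% ± 2.10 against 23.6% ± 6.26. The share of *St3gal4* was 31.8% ± 3.22 against 24.5% ± 2.96 and 31.3% ± 3.03 against 26.0% ± 3.21. Control and stimulated libraries overlapped in the shares of *St3gal1* (7.57% to 17.5% against 17.0% to 36.3%) and *St3gal4* (27.2% to 36.2% against 21.3% to 29.8%). These shares include *St3gal6* and so follow in part from the value that chose it. With the longest transcript as the length, the *St3gal6* share in sgRNA iso was 7.61%.

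Set against each other in the same library, *St3gal1* had 0.345 to 1.65 counts for each count of *St3gal6* in control cells and 2.83 to 11.4 in stimulated cells. The mean ratio of counts was 0.84 ± 0.57 in empty ctrl and 7.37 ± 3.05 in empty iso, and 0.623 ± 0.272 in sgRNA ctrl and 4.28 ± 1.41 in sgRNA iso. Such a ratio within a library does not depend on how libraries are scaled. It includes *St3gal6*, chosen for its decrease, and so follows in part from the value that chose it. The highest value within each treatment was that of replicate 6 in empty cells, the library with the high *St3gal1* level.

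**Figure D3:**
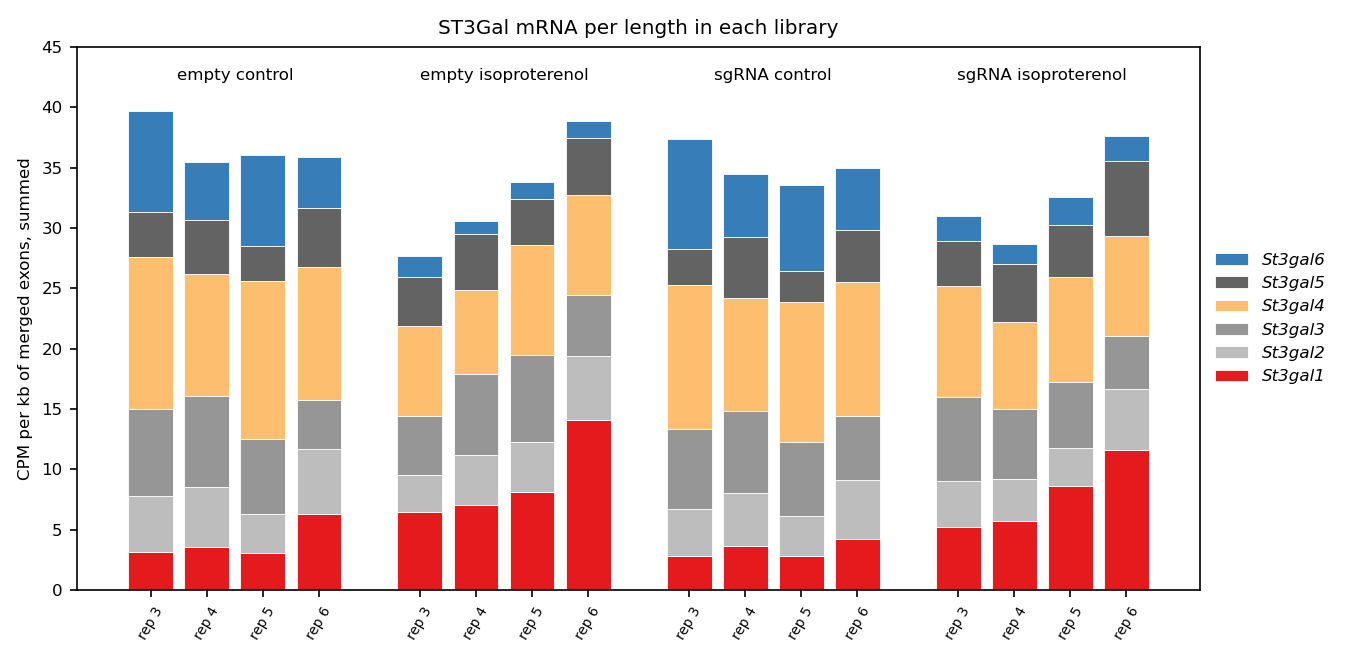
Stacked bars of the level per length (CPM per kb of merged exons) of the 6 ST3Gal mRNAs in each of the 16 libraries, grouped by plasmid and treatment. The *St3gal6* part at the top narrows and the *St3gal1* part at the base widens in the stimulated groups, while the total stays between 27.7 and 39.7.

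The guides against *Gm15551* were compared with the empty vector over both treatments together, a contrast that the selection of *St3gal6* did not use. No member was called for the sgRNA effect averaged over treatments by edgeR, and 0% of all genes were. No member reached an unadjusted p under 0.05 in this test, against 437 (3.32%) of the 13150 genes. With the replicate block 2 members reached it, *St3gal1* and *St3gal6*, as did 11.5% of all genes. None was called with the block, against 0.266% of all genes. DESeq2 called 0 members, for which no share over all genes is given here. The log2 fold changes ran from −0.22 for *St3gal1* (95% interval −0.67 to 0.23) to 0.32 for *St3gal6* (−0.04 to 0.68). With the block these intervals were −0.40 to −0.004 for *St3gal1* and 0.13 to 0.52 for *St3gal6*. Over the 20 repeats the log2 fold change of *St3gal1* was −0.349 to −0.056 and that of *St3gal6* 0.232 to 0.411. Under the other alternatives they were −0.386 to −0.19 and 0.325 to 0.495.

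*St3gal6* had the largest estimate of the 6 members for this averaged difference between plasmids. Split by treatment its values are a description, since the stimulated libraries are those that chose it. The sgRNA libraries were 1.06-fold higher in control cells (log2 fold change 0.09) and 1.46-fold higher in stimulated cells (0.55). In stimulated cells the sgRNA library was the higher of each of the 4 matched pairs, 12.7 against 10.8, 10.0 against 6.31, 14.3 against 8.78 and 12.8 against 8.50 CPM. The ribosomal RNA share was also lower in the sgRNA library of each of these pairs. With that share as covariate the difference in stimulated cells was 0.76, and without the 3 libraries over 40%, all of them empty vector, it was 0.75. The interaction, the isoproterenol effect in sgRNA cells minus that in empty cells, was 0.46 (SE 0.34) for *St3gal6*, and 0.28 to 0.65 over the repeats. The interaction was tested for the other 5 members, and edgeR called none of them, nor any of the 13150 genes (0%). None of these 5 had an unadjusted p under 0.05 without the block (0.395% of all genes) or with it (1.51%). DESeq2 called 0 members here too, again without a share over all genes. The interaction of *St3gal1* was 0.05 (SE 0.42).

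The ST3Gal enzymes draw on a common donor and on acceptors that other enzymes build, so 8 lists with 83 genes of sialic acid metabolism and glycan synthesis were examined beside them. Of these, 50 were tested. Isoproterenol raised 5 and lowered 1, which makes 12% called against 2.65% of all genes, and their median log2 fold change was 0.08 against 0.00 over all genes. With the replicate block 7 were raised and 1 was lowered (16% against 5.7% of all genes, 3.09% higher and 2.61% lower). The lists were chosen with earlier results of these data known, so these shares are a description and carry no test. For the sgRNA effect edgeR called 0 of the 50. Its unadjusted p was under 0.05 in 2 (*Gcnt2* and *Glb1*, against 3.32% of all genes) and, with the block, in 10 (against 11.5%). DESeq2 called 0 of the 50, for which no share over all genes is given here. With the block *Gcnt2* passed the p threshold (log2 fold change −0.44, edgeR adjusted p = 0.00935, lower in 8 of 8 pairs) but not the size bound. In 6 of the 20 repeats that left out a library or a replicate number no pathway gene was called as lowered, and in 9 of them no more than 3 were called as raised.

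Of 14 other sialyltransferases only 4 were tested, since the 6 *St8sia* genes and 4 of the others had too few counts. *St6gal1*, which sialylates N-glycans in the other common linkage to galactose, was raised from 0.898 to 1.87 CPM in control to 1.91 to 4.25 CPM in stimulated libraries (log2 fold change 0.98, SE 0.24, edgeR adjusted p = 0.0262). Its control and stimulated libraries did not overlap, but it was present at 7 to 65 counts per library, and the call was lost in 11 of the 20 repeats. *St6galnac2*, *St6galnac4* and *St6galnac6*, which act on N-acetylgalactosamine, had log2 fold changes of 0.03, 0.41 and 0.18 and were not called.

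Of the genes that make, activate and carry sialic acid, 10 of 11 were tested and 1 was called. *Cmah*, which hydroxylates CMP-N-acetylneuraminic acid to the glycolyl form, was raised 1.5-fold, from 7.11 to 11.0 CPM in control to 9.29 to 16.5 CPM in stimulated libraries (log2 fold change 0.58, SE 0.11, edgeR adjusted p = 0.00684). Without replicate 3 or without replicate 4 it was not called. *Gne*, the rate-limiting enzyme of the supply, had a log2 fold change of −0.32 and was lower in 8 of 8 pairs, with an edgeR adjusted p of 0.0626. With the block it passed the p threshold (−0.32, edgeR adjusted p = 0.00142) but not the size bound. *Cmas*, which activates sialic acid to the CMP donor, and *Slc35a1*, which carries the donor into the Golgi, had log2 fold changes of 0.16 and 0.17. Of 3 tested genes in the list of sialidases and a partner protein, none was called by edgeR. The most abundant of the list, *Ctsa*, the protective partner of the lysosomal sialidase *Neu1*, had 99.3 CPM on average and a log2 fold change of 0.18.

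In glycolipid synthesis 4 of 7 genes were tested, and *B4galt6*, a lactosylceramide synthase that makes the acceptor of *St3gal5*, was raised 1.60-fold, from 6.14 to 9.81 CPM in control to 11.7 to 14.3 CPM in stimulated libraries (log2 fold change 0.68, SE 0.10, edgeR adjusted p = 0.000852). It was called in each of the 20 repeats. *A4galt*, which uses the same acceptor for globosides, differed widely between replicates, 0.304 to 5.93 CPM in control and 0.719 to 8.16 CPM in stimulated libraries, and was called only with the replicate block (log2 fold change 0.66, edgeR adjusted p = 0.0327). Without the block its value of 0.60 moved to 0.064 without sgRNA iso replicate 6 and to 1.34 without sgRNA ctrl replicate 6. Of 8 tested glycolipid breakdown genes none was called. *Psap*, the precursor of the saposins, was the most abundant at 443 CPM, with a log2 fold change of −0.21. *Hexa*, a subunit of lysosomal hexosaminidase, passed the p threshold (edgeR adjusted p = 0.0364) at a log2 fold change of −0.36, short of the size bound.

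Of the galactosyltransferases and branching enzymes that build acceptor chains, 15 of 18 were tested. *Gcnt2*, the I-branching enzyme, was raised 2.04-fold, from 14.1 to 37.6 CPM in control to 29.7 to 58.8 CPM in stimulated libraries (log2 fold change 1.03, SE 0.18, edgeR adjusted p = 0.0026) in 8 of 8 pairs. Without replicate 3 its adjusted p was 0.0674. *Gcnt1*, which starts branched O-glycans, was called with the block (log2 fold change 0.65, edgeR adjusted p = 0.0126) and not without it (0.64, adjusted p = 0.0943). Of 5 tested fucosyltransferases *Fut2* was raised (0.79, edgeR adjusted p = 0.0346) at about 1 CPM. Its means were 1.09 ± 0.21 CPM in empty ctrl and 1.22 ± 0.294 in empty iso against 0.633 ± 0.114 in sgRNA ctrl and 1.69 ± 0.396 in sgRNA iso, and 15 of the 20 repeats did not call it. Among 12 sialic acid-binding lectins the single gene tested was *Siglec1*, a macrophage receptor for sialylated glycans, which was lowered from 1.37 to 4.20 CPM to 1.03 to 1.93 CPM (log2 fold change −0.88, SE 0.20, edgeR adjusted p = 0.0213), with the call lost in 6 of the 20 repeats.

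**Figure D4:**
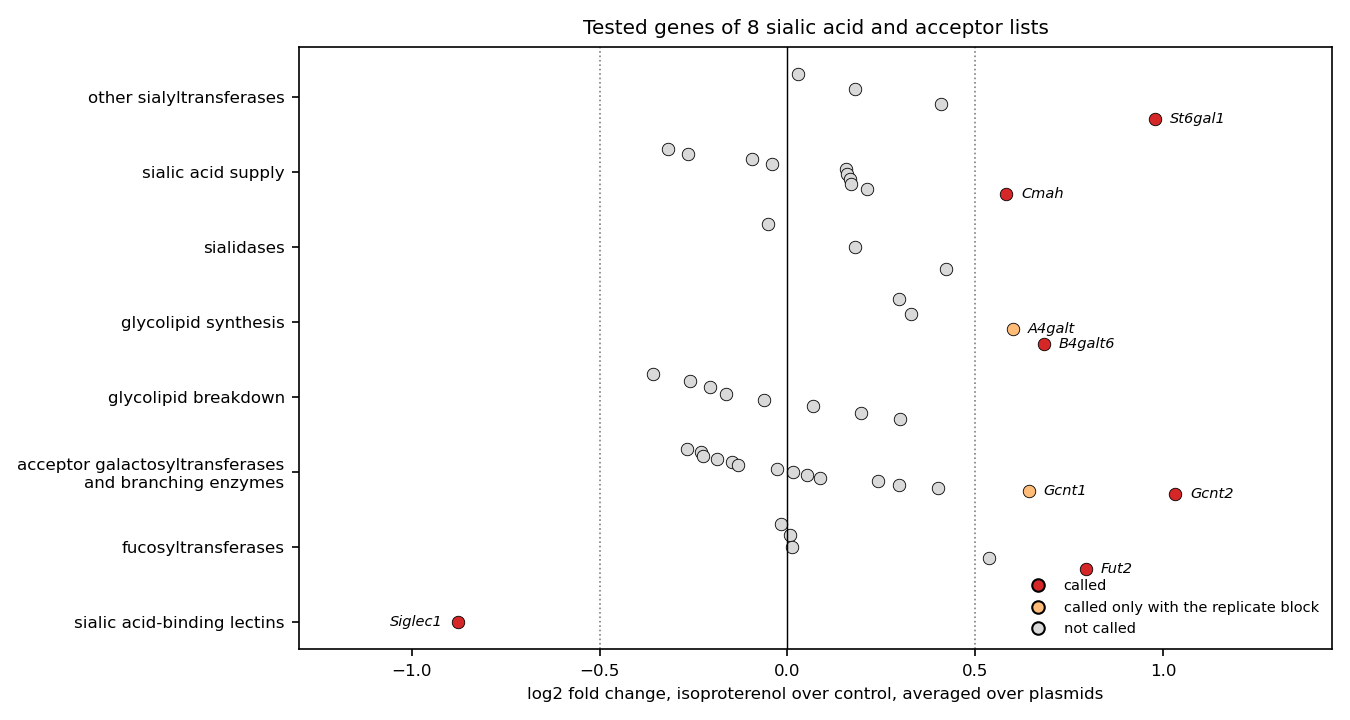
Log2 fold change with isoproterenol, averaged over plasmids, of the 50 tested genes in 8 lists around the ST3Gal enzymes, with 1 point per gene, red where called, orange where called only with the replicate block and grey otherwise. The called genes are 5 to the right of 0.5 and *Siglec1* at −0.88.

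Markers of macrophages and leukocytes moved in part with the treatment. Of 7 such markers only *Cd68*, a lysosomal protein also present outside macrophages, was tested, and it rose with isoproterenol (log2 fold change 0.91, edgeR adjusted p = 0.00518). *Ptprc*, *Adgre1*, *Itgam*, *Csf1r* and *Cd3e* had no more than 5 counts in any library. The summed level of the list was 8.18 to 14.1 CPM in empty ctrl and 14.3 to 22.5 CPM in empty iso, 6.44 to 13.6 CPM in sgRNA ctrl and 13.6 to 22.2 CPM in sgRNA iso, nearly all of it *Cd68*. Of 10 preadipocyte markers 6 were tested and none was called by edgeR, the lowest unadjusted p being 0.0726, for *Ly6a* (log2 fold change 0.99, adjusted p = 0.34). With the replicate block *Ly6a* (1.09, edgeR adjusted p = 4.92e-06) and *Cd24a* (0.53, adjusted p = 0.00214) were called higher. *Zfp423* had −0.27 in the blocked fit (edgeR adjusted p = 0.0357), lower in 8 of 8 pairs and short of the size bound, and the blocked values of *Pdgfra*, *Pdgfrb* and *Pi16* were 0.30, 0.04 and −0.22 with an adjusted p of 0.208, 0.914 and 0.663. For the sgRNA effect, with the block alone, *Cidea* was called higher (1.05, edgeR adjusted p = 0.0348) and *Ly6a* lower (−0.74, adjusted p = 0.00491). The part of these markers in the *St3gal1*, *St3gal4* and *St3gal6* values was not tested. In a fit with the share of ribosomal RNA as covariate, the averaged isoproterenol log2 fold changes were 1.165 for *St3gal1* and −0.53 for *St3gal4*. That of *St3gal6*, a description since it was chosen by this change, was −2.02.

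The gene that overlaps the end of *St3gal6* was not called. *Dcbld2* held 47.1 ± 7.81 CPM in empty ctrl and 43.3 ± 8.45 in empty iso, and 47.7 ± 3.24 in sgRNA ctrl and 39.2 ± 8.78 in sgRNA iso (mean ± SD, n = 4). Averaged over plasmids its log2 fold change was −0.20 (edgeR adjusted p = 0.395). With the block it was −0.21, lower in 7 of 8 pairs, which passed the p threshold (edgeR adjusted p = 0.0186) but not the size bound. *Cpox*, within 200 kb on the other side, had −0.10 (edgeR adjusted p = 0.584). *4930581F22Rik*, which overlaps *St3gal4*, had 2.54 to 4.86 CPM over all libraries and was not called (edgeR adjusted p = 0.593). Near *St3gal1*, *Ndrg1* had a log2 fold change of 0.51 (edgeR adjusted p = 0.467) and *Ccn4* 0.04.

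The genes whose pattern over the 16 libraries was most like that of *St3gal6* were found by the root mean square difference of log2 CPM after each gene's mean was subtracted, among 12109 genes with a mean of at least 1 CPM. They were *Smkr-ps* (0.36), *Strip2* (0.45), *Apcdd1* (0.46), *Plaat3* (0.50) and *Vsir* (0.50), where *St3gal6* itself varied by 1.02 around its mean. *Plaat3*, a phospholipase of adipocytes, was the most abundant, at 179 to 302 CPM in control and 92.5 to 141 CPM in stimulated libraries. *Apcdd1*, an inhibitor of Wnt signals, had 5.63 to 8.81 CPM and 1.99 to 3.11 CPM. *Strip2* had 7.83 to 10.9 CPM and 2.38 to 4.77 CPM. *Smkr-ps* rests on 2 to 56 counts and *Vsir* on 7 to 75 counts per library. The points share libraries and depth, and the likeness carries no test. By the same measure, added after the values were seen, the genes most like *St3gal1*, which varied by 0.70, included *Far1* (0.18), *Prcp* (0.24), *Sik1* (0.24) and *Lama5* (0.25). *Sik1* encodes a salt-inducible kinase that is a known target of cAMP signalling.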

How the data were processed

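Estimated counts per gene of 16 wt1-SAM libraries were analysed. The authors filtered reads with cutadapt, quantified them with salmon against the GENCODE M22 transcriptome (GRCm38) and deposited estimated counts, as whole numbers and not normalized. Tool versions and the use of strand are not given in the sources used here. Columns were matched to samples by title, and 0 columns were without a sample. Coordinates and exon lengths came from GENCODE M21 of the same build, promoter sequences from RefSeq.

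Counts were tested in R 4.3.3 with edgeR 4.0.16: filterByExpr (minimum count 10, minimum total 15), TMM scaling and a quasi-likelihood model of 4 group means in all 16 libraries, two-sided, with Benjamini-Hochberg adjustment over 13150 genes. The same script was tested on simulated data. DESeq2 1.42.0, no filter, leaving out the ribosomal RNA gene, a library or a replicate number, and other lengths were the alternatives. A fit with the ribosomal RNA share as covariate and one without libraries over 40% of it were added after seeing the data. Whether replicate numbers pair the libraries was checked on deviations of log2 CPM (prior count 2) from group means: same-number pairs correlated at 0.22 to 0.61 (24 pairs), different numbers at −0.51 to 0.52 (72 pairs). The numbers were therefore taken as pairs in the counts of matched pairs and in the fits with a replicate block. The main fit had no block, and values are from it unless the block or another setting is named. The block is given where it changes a call of a gene described here, and for some other values.

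The members and gene lists were chosen with earlier results of these data known. Genes were named by rule: all members, up to 4 called genes per list, or else its most abundant gene, and the 5 genes most like *St3gal6*. *Gne*, *Cmas*, *Slc35a1*, *Hexa*, the *St6galnac* genes, overlapping genes, genes called only with the block, cell type markers and genes like *St3gal1* were named after their values were seen. Of the symbol *St6galnac2*, the identifier with more counts was used. Intervals at 95% cover the spread between libraries.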

Additional observations from a re-analysis of the deposited data

Results flagged for a closer look

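The *St3gal1* level of empty ctrl replicate 6, 43.1 CPM, stood apart from the other 3 libraries of its group, at 21.3 to 24.7 CPM. Its gap to the nearest library took 0.844 of the group's range, above the 95% critical value of Dixon's test for 4 samples. It was the single such case among 24 sets of 4 libraries (6 members in 4 groups), and chance alone gives about 1 in 20. Replicate 6 was also the highest for *St3gal1* in the other groups. Without that library the log2 fold change of *St3gal1* with isoproterenol was 1.32 averaged over plasmids and 1.44 in empty cells, against 1.17 and 1.15 with it.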

How the results depend on the processing

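The direction of the isoproterenol changes of *St3gal1* and *St3gal4* held under every alternative run. For *St3gal6*, chosen for its decrease in these libraries, the values below are a description only. Over the repeats that left out 1 library or 1 replicate number, the averaged log2 fold change was 1.02 to 1.32 for *St3gal1*, −0.51 to −0.44 for *St3gal4* and −2.09 to −1.83 for *St3gal6*. *St3gal1* was not called without replicate 5 (1.08), and *St3gal4* was called with no filter on low counts (−0.50) and with the ribosomal RNA share as covariate (−0.53), since its value lies at the size bound. The count of members other than *St3gal6* that were raised was then 0 to 1 over these repeats and that of lowered members 0 to 1, with 1 lowered under no filter and under the covariate. With the replicate block the averaged values were 1.14 for *St3gal1*, −0.47 for *St3gal4* and −1.91 for *St3gal6*, and beside the pairing results given above it changed no other call of a member. Within plasmid groups DESeq2 and the fit with no filter called *St3gal1* (1.15 and 1.13 in empty, 1.20 and 1.16 in sgRNA cells). In empty cells edgeR also called it without replicate 6 (1.13, adjusted p = 0.0192) and without empty ctrl replicate 6 (1.44, adjusted p = 0.0279). In sgRNA cells 1 of the 20 repeats called it.

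Raised pathway genes numbered 1 to 6 and lowered ones 0 to 1 over the repeats, with 3 raised and 0 lowered without libraries over 40% ribosomal RNA. The lowest count of raised genes, 1, was that without replicate 3. Without replicate 4 there were 2, and 3 without replicate 5, empty ctrl replicate 3 or 5, sgRNA ctrl replicate 3 or 5, or either stimulated library of replicate 4. The lowered gene was lost without replicates 3, 4 or 5, empty ctrl replicate 4, or sgRNA ctrl replicate 3 or 5. The *St3gal6* share was 15.4% to 18.5% in empty ctrl, 3.70% to 4.69% in empty iso, 17.0% to 20.2% in sgRNA ctrl and 5.94% to 6.46% in sgRNA iso when a replicate number was left out, and 7.61% in sgRNA iso with the longest transcript length.

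Values near 0 that were not called changed sign. The sgRNA effect on *St3gal4* was 0.0048 with DESeq2, 0.025 with no filter, 0.00079 without the ribosomal RNA gene, 0.128 with its share as covariate and 0.060 without libraries over 40% of it, and −0.046 to 0.042 over the repeats. That on *St3gal5* was −0.112 and −0.102 under the last 2 settings and −0.069 to 0.091 over the repeats, and that on *St3gal3* was −0.135 to 0.0099. The interaction was −0.096 for *St3gal1* without libraries over 40% ribosomal RNA, and −0.00045 and −0.0053 for *St3gal2* with the covariate and without these libraries. Over the repeats it was −0.241 to 0.355 for *St3gal1*, −0.113 to 0.18 for *St3gal2* and −0.299 to 0.097 for *St3gal3*. Further sign changes over the repeats were those of the isoproterenol effect in empty cells on *St3gal3* (−0.237 to 0.077) and *St3gal5* (−0.0024 to 0.216), and of the sgRNA effect in control cells on *St3gal6* (−0.091 to 0.273). The cause was not tested for these. The member with the fewest counts was *St3gal5*, at 59 to 229 per library.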
